A study of Mus musculus with 26 samples.

Results

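The 10 genes described here, Tnfrsf11a, Oscar, Itgb3, Nfatc1, Dcstamp, Ocstamp, Tm4sf19, Atp6v0d2, Acp5 and Ctsk, encode proteins best known from osteoclasts, the bone-resorbing cells that form when macrophage precursors fuse. They are 10 of the 39017 genes in the tables, and the set was picked on the strong rise of Tm4sf19 and Atp6v0d2 in adipocytes of mice fed a high fat diet. The members were chosen with earlier results of these data known. Comparisons that share the low fat or high fat adipocyte libraries are therefore not independent of that choice, for any of the 10 genes. In bone, the receptor RANK receives the ligand RANKL, signals through adaptors and calcium to the transcription factor NFATc1, and so switches on the genes for cell fusion and for resorption. The fused cell seals off a patch of bone, acidifies it with a proton pump, the V-ATPase, and degrades collagen with secreted proteases. In obese fat, macrophages gather around dying adipocytes, can fuse into multinucleated cells there, and take up and digest the remains in lysosomes that use the same kind of pump and protease.

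RNA was sequenced from the epididymal fat of male C57BL/6J mice that were 9 to 10 weeks old at the start. The LFD group received a diet with 10% of its energy as fat for 12 weeks, the HFD group a diet with 60% for 12 weeks, and the SW group the HFD for 9 weeks and then the LFD for 3 weeks. The fat was digested with collagenase and spun, so that the adipocyte fraction floats, while the pellet, freed of red blood cells by lysis, is the stromal vascular cell (SVC) fraction with the macrophages. Neither fraction is a sorted cell type. Used here were 9 adipocyte libraries, 3 for each diet, and 6 SVC libraries, 1 of LFD, 2 of HFD and 3 of SW mice. A further 3 columns, whose names fit no labelled group, were left out. The labels name 18 libraries in all, so SVC LFD and SVC HFD have fewer columns here than labelled replicates. Every comparison with LFD in SVC thus rests on 1 library. Each library is called by the number in its column name. The labels also mark each record as a paired-end or a single run. Every adipocyte replicate has a paired-end run, some with a single run besides. In SVC, HFD replicates 1 and 3 and LFD replicate 1 have single runs only, while every SW replicate has both kinds. Columns could not be tied to these records. Run type therefore cannot be told apart from fraction, or from diet in SVC.

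The adipocyte libraries held 6142895, 19720207 and 7510142 counts in LFD mice (404, 405 and 406), 12223677, 23725647 and 22162837 in HFD mice (401, 402 and 403) and 11314661, 16271834 and 13722008 in SW mice (407, 408 and 409). The SVC libraries held 5781902 counts in the LFD mouse (236), 13106471 and 17818059 in HFD mice (212 and 411) and 10155860, 22195810 and 10121939 in SW mice (412, 413 and 414). At these depths, 3 counts, the most that an observed 0 allows, come to between 0.126 and 0.519 on the counts-per-million (CPM) scale of the library total. The pair of SVC HFD libraries stood apart from each other. In library 411, 33.5% of the counts were mitochondrial, against 6.34% in library 212, and hemoglobin genes took 3.09% of the counts in 411 and 0.287% in 212. The changes of the 9 genes tested from HFD to SW in SVC are therefore given also without each of these libraries, where the single HFD library left is taken to vary like the other groups. Among the adipocyte libraries, 407 of the SW group stood apart from 408 and 409 (chi-square per degree of freedom between the counts of a pair of libraries 89.5 and 80.4, against 12.8 between 408 and 409 and 376 for the SVC HFD pair). Its summed markers of macrophages (8409 CPM against 5936 and 5674) and of T cells (28.4 CPM against 14.4 and 4.31) were the highest of its group. Adipoq, the adipocyte hormone adiponectin, lay between 710 and 3939 CPM in the adipocyte libraries and between 13.6 and 80.5 in the SVC libraries. The macrophage marker Adgre1 did not separate the fractions in HFD mice, at 718, 513 and 667 CPM in adipocytes and 645 and 897 CPM in SVC, while Cd68 was higher in SVC (at least 1013 CPM, against at most 785).

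Levels below are CPM scaled between all 15 libraries with TMM factors. Tnfrsf11a encodes RANK, the receptor of the pathway. Its adipocyte level was 4.60, 4.33 and 2.38 CPM in LFD mice, at 32.8, 23.9 and 36.4 CPM in HFD mice and at 17.0, 15.2 and 14.3 CPM in SW mice. The 3 diets did not overlap, and every SW library lay between the highest LFD and the lowest HFD library. After the switch Tnfrsf11a was 1.99-fold lower than in HFD mice (log2 fold change -0.99, standard error 0.21, edgeR adjusted p = 0.00983) and still 4.02-fold higher than in LFD mice (log2 2.01, standard error 0.24, edgeR adjusted p = 0.000398), comparisons that share libraries with the choice of the set. Of the gap between the HFD and LFD means, 43.0% was left in SW mice, and 38.5% to 48.7% in single libraries. In SVC it stood at 10.2 CPM in the LFD mouse, at 39.2 and 25.1 CPM in HFD mice and at 7.99, 11.8 and 9.28 CPM in SW mice. There the SW libraries lay around the LFD library and below both HFD libraries (3.58-fold lower, log2 -1.84, standard error 0.33, edgeR adjusted p = 0.0362). That call was lost when SVC library 212, 412, 413 or 414 was left out, with log2 values from -2.09 to -1.31 and edgeR adjusted p from 0.0541 to 0.155, and held without 411 (log2 -2.18, edgeR adjusted p = 0.0113). The SW libraries of both fractions also differed, with 1.58-fold more in adipocytes than in SVC (log2 0.66, standard error 0.26, edgeR adjusted p = 0.0341), a call that did not hold without SVC library 412 or 414 or without adipocyte library 407 or 408 (edgeR adjusted p from 0.0516 to 0.0760). In bulk libraries such as these, a change in the number of cells of a type and a change in RNA per cell cannot be told apart, for this and the other genes.

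Nfatc1 encodes the transcription factor that directs osteoclast formation, and it is also used by lymphocytes and endothelial cells. Its level in adipocytes was 24.7, 27.8 and 20.6 CPM in LFD, 31.5, 26.9 and 30.3 CPM in HFD and 21.4, 22.4 and 21.7 CPM in SW mice. HFD and LFD overlapped, and all SW libraries lay below all HFD libraries. The fall from HFD to SW was small, 1.34-fold (log2 -0.42, standard error 0.13, edgeR adjusted p = 0.0340). It ended as a call after thinning all libraries to the smallest (adjusted p = 0.0818, of a range from 0.0169 to 0.0818 over the settings with every library) and without library 401, 403, 407, 408 or 409, where the edgeR adjusted p reached 0.0960. In SVC Nfatc1 was higher, at 57.6 CPM in the LFD mouse, 36.4 and 44.2 CPM in HFD and 44.9, 42.6 and 59.5 CPM in SW mice. The SW libraries overlapped with HFD, and the LFD library lay within their range and above both HFD libraries. SW against HFD gave log2 0.19 there (0.20 without 212, 0.26 without 411, edgeR adjusted p from 0.450 to 0.633). In SW mice its level was 2.24-fold lower in adipocytes than in SVC (log2 -1.16, standard error 0.17, edgeR adjusted p = 4.08e-05), and the libraries of the fractions did not overlap.

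Oscar, a collagen-binding receptor that adds a second signal to RANK, was close to absent. It had between 0 and 4 counts in each of the 15 libraries, 20 counts in all among 211973949, and was not tested. Its summed counts were 5 in LFD, 6 in HFD and 3 in SW adipocytes, too few to show a change at this depth.

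Itgb3 encodes the beta3 chain of the integrin with which osteoclasts attach to bone, and platelets carry the same chain. In adipocytes it stood at 4.32, 4.47 and 3.09 CPM in LFD, 7.45, 4.67 and 5.05 CPM in HFD and 4.78, 3.00 and 4.37 CPM in SW mice. The HFD libraries lay above the LFD libraries by a narrow margin, which was gone with upper-quartile factors, and they overlapped with SW. In SVC it stood at 20.8 CPM in the LFD mouse, 14.3 and 9.47 CPM in HFD and 10.7, 18.2 and 13.1 CPM in SW mice, above every adipocyte library. SW against HFD gave log2 0.12 in SVC (edgeR adjusted p = 0.817), and 0.62 without library 212 and -0.20 without 411, not called in any of them. Within SW mice the adipocyte level was 3.49-fold lower than in SVC (log2 -1.80, standard error 0.29, edgeR adjusted p = 0.000101). Within HFD mice it was 2.09-fold lower (log2 -1.06, standard error 0.30, edgeR adjusted p = 0.0197), but not past the threshold when only the HFD groups were fitted or without SVC library 212 or adipocyte library 402 or 403, where the edgeR adjusted p lay between 0.0664 and 0.121. Of the platelet markers, Pf4, which some macrophages also make, was at 29.8 to 189 CPM in adipocytes and 157 to 439 CPM in SVC. Itga2b, the platelet partner of the beta3 chain, was at 1.97 to 4.496 CPM in adipocytes and 8.81 to 18.4 CPM in SVC, and its part in the level of Itgb3 was not tested.

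Dcstamp encodes a membrane protein that precursors of osteoclasts and of macrophage giant cells need in order to fuse. In adipocytes it stood at 1.39, 1.34 and 0.475 CPM in LFD, 13.9, 8.95 and 15.5 CPM in HFD and 15.4, 9.66 and 6.43 CPM in SW mice. SW and HFD overlapped, and every library of both lay above every LFD library. The share of the gap between the HFD and LFD means left in SW mice was 80.4%, and 45.8% to 122% in single libraries. The SW level was 9.21-fold above LFD (log2 3.20, standard error 0.43, edgeR adjusted p = 0.000750), a comparison that shares the LFD libraries with the choice of the set. SW against HFD gave a log2 fold change of -0.28 with a 95% interval from -1.03 to 0.46 (edgeR adjusted p = 0.534). In SVC it stood at 3.25 CPM in the LFD mouse, 17.9 and 17.4 CPM in HFD and 15.3, 11.9 and 18.3 CPM in SW mice, so that the 5 libraries with a history of HFD were all above the LFD library and overlapped among themselves. SW against HFD gave log2 -0.32 there, and -0.14 without 212 and -0.41 without 411 (edgeR adjusted p from 0.368 to 0.805).

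Ocstamp, whose protein is related to that of Dcstamp and needed for fusion as well, was rare. In adipocytes its counts were 6, 15 and 3 in LFD, 10, 37 and 35 in HFD and 15, 24 and 19 in SW libraries, which is at most 1.42 CPM. The HFD libraries overlapped with both other diets, and the SW libraries lay above LFD without passing the test (log2 1.02, standard error 0.41, edgeR adjusted p = 0.114). In SVC it reached 1.73 CPM in the LFD mouse, 2.22 and 5.47 CPM in HFD and 5.45, 3.13 and 3.66 CPM in SW mice. SW against HFD gave log2 0.03 there, and -0.37 without 212 and 0.71 without 411 (edgeR adjusted p from 0.358 to 0.977). Within SW mice it was 3.10-fold lower in adipocytes than in SVC (log2 -1.63, standard error 0.44, edgeR adjusted p = 0.00492, and 0.0534 after thinning, of a range from 0.00145 to 0.0534 over the settings with every library). Within HFD mice it was 3.23-fold lower (log2 -1.69, standard error 0.47, edgeR adjusted p = 0.0165). That call was lost when only the HFD groups were fitted, after thinning, and without SVC library 411 or adipocyte library 401, with edgeR adjusted p up to 0.274.

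Tm4sf19 encodes a small 4-pass membrane protein of osteoclasts that has a part in the formation of multinucleated cells. In adipocytes it had 1, 0 and 2 counts in the LFD libraries, 211, 267 and 450 in HFD and 4, 37 and 27 in SW. In CPM these were at most 0.238 in LFD, then 14.2, 10.1 and 18.2 in HFD and 0.375, 1.98 and 1.73 in SW. The gene was all but absent in LFD and clearly present in every HFD library, and the SW libraries lay between them, with no overlap between the 3 diets. The margin between SW and LFD was narrow and rested on few counts, 4 in SW library 407 and 2 in LFD library 406. The fall from HFD to SW, which is measured from the HFD libraries used to pick the gene, was 9.70-fold (log2 -3.28, standard error 0.47, edgeR adjusted p = 0.00376). Of the gap between the HFD and LFD means, 8.83% was left in SW mice, and 1.77% to 13.2% in single libraries. The summed counts per library total in SW were 18.3 times those of LFD mice (95% exact interval for counting error 6.01 to 91.0, from 68 and 3 counts). The fitted change, which shares the LFD libraries with the choice, was log2 3.99 (standard error 0.90, edgeR adjusted p = 0.0131). The gene passed the filter for this test only with the HFD libraries in the fit, where it was picked as high. With only SW and LFD fitted it was not tested. The fitted change and its call are therefore a description, and no support for a difference is drawn from them. The call held without a filter (edgeR adjusted p = 0.0178) and was lost with limma-voom (adjusted p = 0.0570, of a range from 0.000275 to 0.0570 over the settings with every library) and without LFD library 405 (edgeR adjusted p = 0.0810).

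The SVC gave another picture for Tm4sf19. It stood at 0.867 CPM in the LFD mouse, 7.52 and 18.8 CPM in HFD and 15.4, 13.04 and 10.98 CPM in SW mice. All SW libraries lay within the range of the HFD pair and above the LFD library. The log2 fold change from HFD to SW was -0.06 with a 95% interval from -1.08 to 0.96 (edgeR adjusted p = 0.924), and its sign depended on the HFD library left out (-0.46 without 212, 0.64 without 411, edgeR adjusted p of 0.354 and 0.212). In SW mice Tm4sf19 was thus 9.18-fold lower in adipocytes than in SVC (log2 -3.20, standard error 0.52, edgeR adjusted p = 0.000119). The difference between the fractions in the change from HFD to SW, which shares the HFD adipocyte libraries with the choice of the gene, was tested itself and came to log2 -3.31 (standard error 0.74, edgeR adjusted p = 0.00633). Its log2 value stayed between -4.01 and -2.78 without each of the 11 libraries involved, SVC library 411 included. Leaving out a library does not undo the choice on the HFD adipocyte libraries, so this result is a description only.

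**Figure D1:**
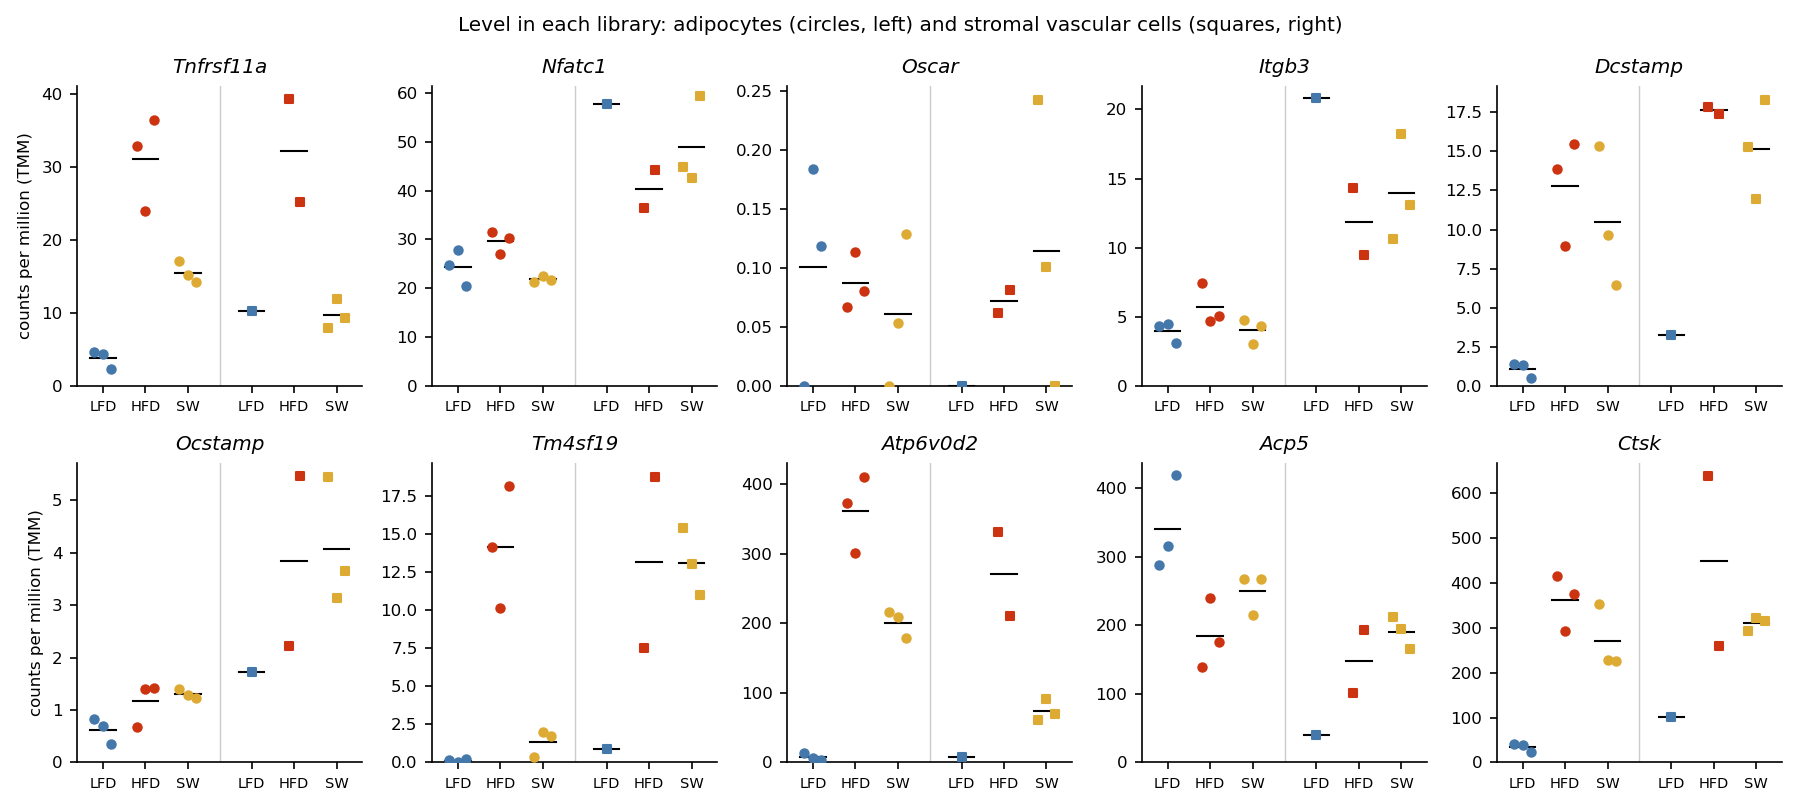
Level of each gene in each library in CPM (TMM-scaled), adipocytes as circles and SVC as squares, with a black line at the group mean and the diet on the x axis. Tm4sf19 in SW mice lay at or under 1.98 CPM in adipocytes and at or above 10.98 CPM in SVC, while Acp5 was highest in LFD adipocytes.

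Atp6v0d2 encodes subunit d2 of the membrane sector of the V-ATPase, a form that osteoclasts use in place of the common subunit d1 and that is also needed for their fusion. In adipocytes it stood at 14.1, 6.82 and 3.80 CPM in LFD, 373, 301 and 411 CPM in HFD and 216, 209 and 178 CPM in SW mice. The 3 diets did not overlap, and every SW library lay above LFD and below HFD. The SW level was 24.9-fold above LFD (log2 4.64, standard error 0.38, edgeR adjusted p = 5.62e-05), a comparison that shares the LFD libraries with the choice of the gene, and 54.6% of the gap between the HFD and LFD means was left (48.2% to 58.8% in single libraries). Against HFD, whose libraries were also used for the choice, the fitted log2 fold change was -0.83 (standard error 0.32, edgeR adjusted p = 0.0681). It passed with DESeq2 (adjusted p = 0.0350), with limma-voom (adjusted p = 0.0380) and when only SW and HFD were fitted (edgeR adjusted p = 0.0143), of a range from 0.0143 to 0.0832 over the settings with every library.

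In SVC, Atp6v0d2 stood at 7.15 CPM in the LFD mouse, 331 and 210 CPM in HFD and 61.6, 91.8 and 69.9 CPM in SW mice. Every SW library was below both HFD libraries and above the LFD library (SW 3.94-fold lower than HFD, log2 -1.98, standard error 0.31, edgeR adjusted p = 0.0362). The call did not hold without SVC library 412, 413 or 414, although the log2 value stayed between -2.24 and -1.87 (edgeR adjusted p from 0.0541 to 0.155). It held without 212 (log2 -1.44, edgeR adjusted p = 0.0465) and without 411 (log2 -2.32, edgeR adjusted p = 0.0113). After the switch adipocytes had 2.70-fold more Atp6v0d2 than SVC (log2 1.43, standard error 0.33, edgeR adjusted p = 0.00191), whereas in HFD mice the difference between fractions was log2 0.42 with a 95% interval from -0.37 to 1.21 (edgeR adjusted p = 0.412), 0.78 without SVC library 212 and 0.13 without 411. The test of the difference between the 2 changes gave log2 1.01 (standard error 0.49, edgeR adjusted p = 0.141). It passed when only the groups compared were fitted (0.0486, of a range from 0.0486 to 0.170 over the settings with every library) and without SVC library 411 (0.0465), but not without 212 (log2 0.64, edgeR adjusted p = 0.418). Tm4sf19 and Atp6v0d2, the pair on which the set was picked, thus differed between the fractions of SW mice, the former lower in adipocytes than in SVC, the latter higher.

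Beside subunit d2, the common subunit d1 changed less in adipocytes, although every HFD and every SW library lay above every LFD library. Per kilobase of transcript, the scale on which genes can be compared, Atp6v0d1 had a mean of 70.0 CPM per kb in LFD, 82.5 in HFD and 92.4 in SW adipocytes, and Atp6v0d2 had 3.03, 133 and 74.0. The share of d2 in the sum of both was 6.82%, 3.49% and 1.96% in LFD, 64.8%, 55.6% and 64.2% in HFD and 42.5%, 49.0% and 42.3% in SW adipocyte libraries. Subunit d2 was thus the minor form in LFD, the major form in every HFD library and close to an equal partner in SW. In SVC the share was 1.49% in the LFD mouse, 62.3% and 31.3% in HFD and 8.65%, 14.7% and 8.97% in SW mice. There d1 differed as well, at 175 CPM per kb in the LFD mouse, 73.8 and 170 in HFD mice and a mean of 232 in SW mice. The share in the SW libraries of SVC had returned most of the way to that of the LFD library, which in adipocytes it had not. These shares were not tested. Of the 6 other V-ATPase genes listed (Atp6v0d1, Atp6v0a1, Atp6v0a2, Tcirg1, Atp6v1a and Atp6v1b2), 5 were higher and 0 lower in HFD than in LFD adipocytes, against 26.5% and 25.0% of all genes, and 4 were higher and 0 lower in SW than in LFD, against 10.9% and 6.18%. From HFD to SW 0 rose and 2 fell, against 15.6% and 15.9% of all genes, Atp6v0a2 (log2 -1.44, standard error 0.27, edgeR adjusted p = 0.00689) and Atp6v1a (log2 -0.77, standard error 0.15, edgeR adjusted p = 0.00829).

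**Figure D2:**
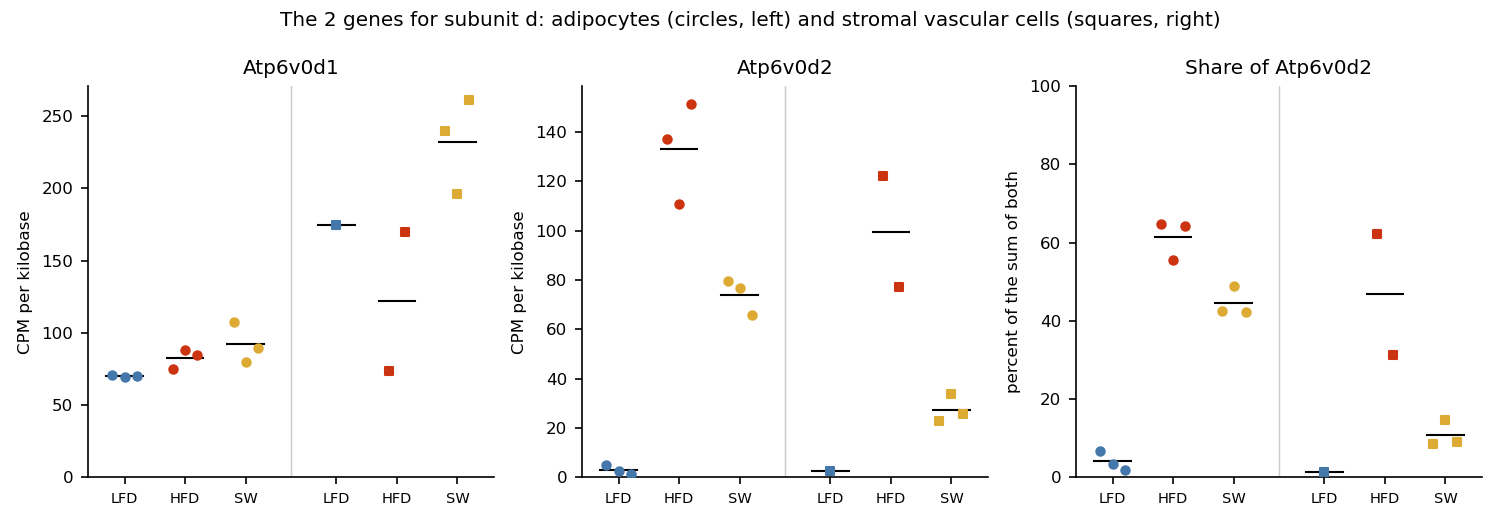
Levels of Atp6v0d1 and Atp6v0d2 in CPM per kilobase and the share of Atp6v0d2 in their sum in percent, by diet on the x axis, adipocytes as circles and SVC as squares, with a black line at the group mean. The share was at most 6.82% in LFD adipocytes, at least 55.6% in HFD and between 42.3% and 49.0% in SW adipocytes, and at most 14.7% in SW SVC.

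Acp5 encodes tartrate-resistant acid phosphatase, the classic stain for osteoclasts. In adipocytes it stood at 289, 316 and 419 CPM in LFD, 139, 241 and 175 CPM in HFD and 268, 216 and 268 CPM in SW mice. It was thus highest in LFD, all HFD libraries lay below all LFD libraries, and SW lay between them and overlapped with HFD. SW against HFD gave log2 0.45 with a 95% interval from -0.02 to 0.92 and did not pass the test (edgeR adjusted p = 0.127), and without HFD library 402 it did (log2 0.65, edgeR adjusted p = 0.0429, of a range from 0.0429 to 0.363 without single libraries). In SVC the order of the diets was another, at 39.7 CPM in the LFD mouse, 102 and 193 CPM in HFD and 213, 195 and 165 CPM in SW mice. Every SVC library with a history of HFD was above the LFD library. SW and HFD overlapped (log2 0.30, edgeR adjusted p = 0.445). Without library 411 SW was higher (log2 0.74, edgeR adjusted p = 0.0495), and without 212 it was not (log2 0.04, edgeR adjusted p = 0.916).

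Ctsk encodes cathepsin K, the protease with which osteoclasts degrade type I collagen. In adipocytes it stood at 40.3, 39.5 and 24.1 CPM in LFD, 415, 294 and 376 CPM in HFD and 354, 229 and 227 CPM in SW mice. SW and HFD overlapped and both lay far above LFD. The SW level was 7.74-fold above LFD (log2 2.95, standard error 0.27, edgeR adjusted p = 7.83e-05), a comparison that shares the LFD libraries with the choice of the set. Of the gap between HFD and LFD, 71.9% was left (58.7% to 97.6% in single libraries, the highest in 407), and SW against HFD gave log2 -0.41 with a 95% interval from -0.96 to 0.14 (edgeR adjusted p = 0.220). In SVC it stood at 102 CPM in the LFD mouse, 638 and 261 CPM in HFD and 294, 323 and 314 CPM in SW mice. The SW libraries lay between the HFD pair (log2 -0.66, edgeR adjusted p = 0.255). Without library 411 the fall was called (log2 -1.21, edgeR adjusted p = 0.0119), and without 212 the sign turned (log2 0.31, edgeR adjusted p = 0.304).

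Counted together, and as a description only, since the contrast of HFD with LFD adipocytes was used to pick the set, 6 of the 10 genes were higher in every HFD than in every LFD library and 1, Acp5, was lower. Among all 14461 genes tested in adipocytes, 33.0% were higher without overlap and 29.2% lower. The fitted log2 fold changes of HFD against LFD were 5.47 for Atp6v0d2, 3.49 for Dcstamp, 3.36 for Ctsk, 3.00 for Tnfrsf11a, 0.88 for Ocstamp, 0.49 for Itgb3, 0.26 for Nfatc1 and -0.90 for Acp5. For Tm4sf19, with 928 counts in HFD and 3 in LFD, the ratio per library total was 178 (95% exact interval for counting error 60.6 to 863).

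From HFD to SW, a comparison that shares the HFD libraries with that choice, 3 of the 10 genes fell in adipocytes (Tm4sf19, Tnfrsf11a and Nfatc1), against 15.9% of all genes tested, and 0 rose, against 15.6%. At an unadjusted p under 0.05 in edgeR, 4 fell and 0 rose, and DESeq2 and limma-voom each called 4 falls, with Atp6v0d2 among them, and 0 rises. From LFD to SW, a comparison that shares the LFD libraries, 5 of the 10 were higher (Atp6v0d2, Tm4sf19, Dcstamp, Ctsk and Tnfrsf11a), against 10.9% of all genes, and 0 were lower, against 6.18%, with 6 and 0 at an unadjusted p under 0.05 in edgeR and 0 lower with DESeq2 and limma-voom. Tm4sf19 passed the filter there only through the HFD libraries, and the share of all genes carries no such choice, so this count is a description only. With only SW and LFD fitted, 8 of the 10 were tested, Tm4sf19 not among them, and 4 were higher, against 1369 of 14036 genes. Without SW library 407 the counts were 2 falls from HFD and 5 genes above LFD. The SVC libraries had no part in the choice. There 2 of the 10 fell from HFD to SW (Atp6v0d2 and Tnfrsf11a), against 11.7% of all 16319 genes tested, and 0 rose, against 5.71%, with 0 rising at an unadjusted p under 0.05 in edgeR and 0 with DESeq2 and limma-voom. Without SVC library 412, 413 or 414 the count was 0, where 0 of 16510, 0 of 15716 and 593 of 16532 genes tested were called.

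Between the fractions, 2 of the 10 were higher in adipocytes than in SVC of SW mice (Atp6v0d2 and Tnfrsf11a), against 32.8% of the 17441 genes tested, and 4 were lower (Tm4sf19, Itgb3, Ocstamp and Nfatc1), against 35.6%. In HFD mice, whose adipocyte libraries were used for the choice, 2 were lower in adipocytes (Itgb3 and Ocstamp), against 16.2% of all genes. By the test of that difference, which shares the HFD adipocyte libraries with the choice, the fractions changed apart from HFD to SW for 2 of the 10 (Tm4sf19 and Nfatc1), against 27.1% of all genes. The count did not exceed that share. For Tnfrsf11a the difference between the 2 changes was log2 0.72 (standard error 0.37, edgeR adjusted p = 0.174). It lay between 0.36 and 1.08 without single libraries, the highest without SVC library 411.

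**Figure D3:**
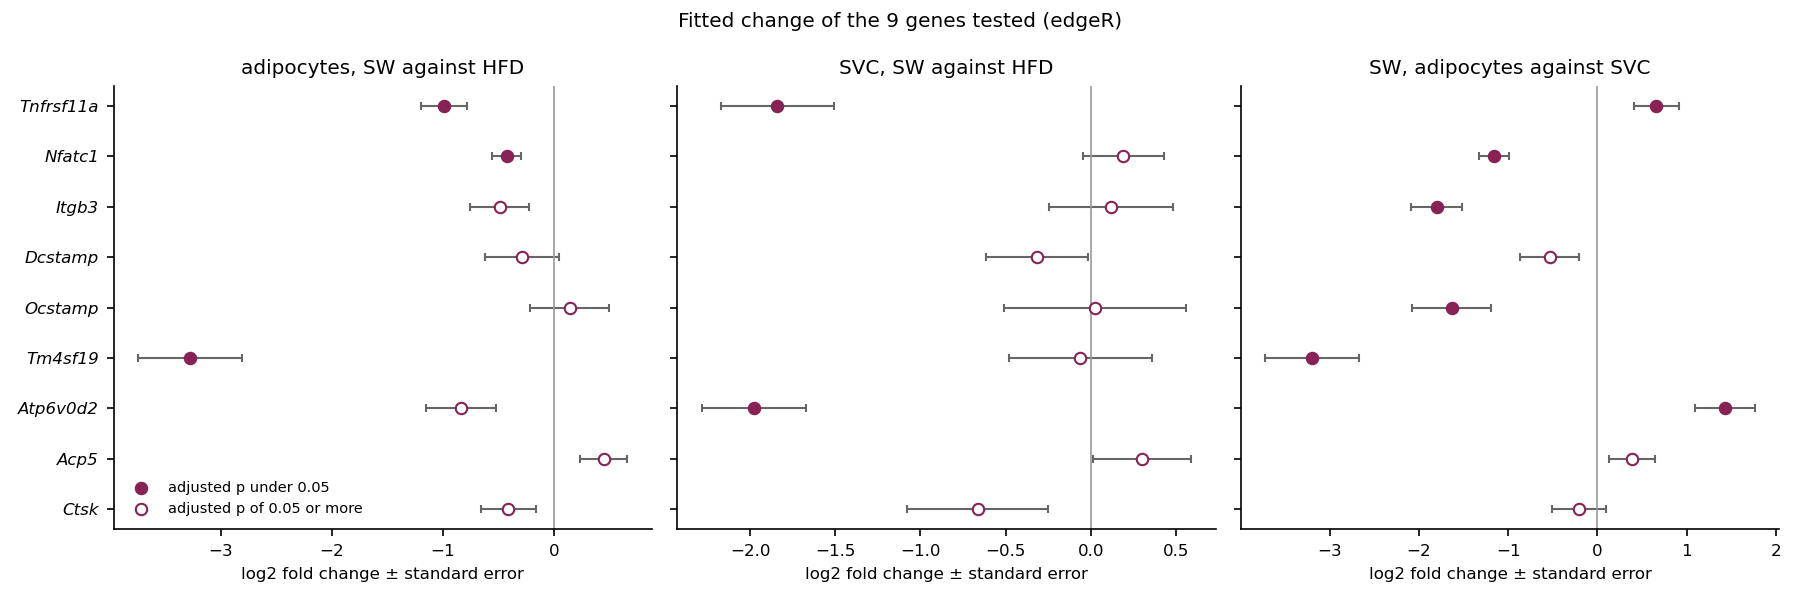
Fitted log2 fold changes of the 9 genes tested with their standard errors (edgeR), for SW against HFD in adipocytes, SW against HFD in SVC and adipocytes against SVC in SW mice; filled points have an adjusted p under 0.05. Tm4sf19 fell by 3.28 in adipocytes and lay at -0.06 in SVC, and Atp6v0d2 fell by 1.98 in SVC.

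The levels spanned a wide range, compared here per kilobase of annotated exons. In HFD adipocytes the order by mean was Ctsk (239 CPM per kb), Atp6v0d2 (133), Acp5 (91.2), Tm4sf19 (11.3), Tnfrsf11a (5.19), Dcstamp (4.80), Nfatc1 (3.96), Itgb3 (0.970), Ocstamp (0.318) and Oscar (0.0472). The neighbours Atp6v0d2 and Acp5, Tnfrsf11a and Dcstamp, and Dcstamp and Nfatc1 overlapped between libraries. In LFD adipocytes the order began with Acp5 (168 CPM per kb), Ctsk (22.9), Nfatc1 (3.26) and Atp6v0d2 (3.03), of which the last 2 overlapped, and every other gene was under 1 CPM per kb. In SW adipocytes Ctsk (178) came before Acp5 (123) and Atp6v0d2 (74.0) without overlap, and Tm4sf19 (1.09) had dropped behind Dcstamp (3.93), Nfatc1 (2.92) and Tnfrsf11a (2.59). In SW SVC Ctsk (205), Acp5 (94.1), Atp6v0d2 (27.4) and Tm4sf19 (10.4) led without overlap.

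Macrophage markers moved with the diets in the same libraries. All 12 on the list were higher in HFD than in LFD adipocytes, against 26.5% of all genes (edgeR adjusted p under 0.05). In SW 5 of 12 were lower and 0 higher than in HFD, against 15.9% and 15.6%. Against LFD, 11 of 12 were higher in SW, with 10.9% of all genes. Their summed level was 1097, 1112 and 693 CPM in LFD, 8779, 7808 and 9008 CPM in HFD and 8409, 5936 and 5674 CPM in SW adipocytes, and 10672 CPM in the LFD, 11292 and 23299 CPM in the HFD and 23119, 17234 and 24412 CPM in the SW libraries of SVC. The most abundant was Lyz2, except in the SVC LFD library, where it was Csf1r, and no marker was at 0 in any library. The defining pair rose alike from LFD to HFD adipocytes, Adgre1 from at most 31.4 to at least 513 CPM and Cd68 from at most 49.6 to at least 595 CPM. The part of macrophage number in the levels of the 10 genes was not tested.

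Set against the summed markers, the genes fell into different patterns. Tnfrsf11a had 4.19, 3.89 and 3.43 CPM per 1000 CPM of markers in LFD, 3.74, 3.06 and 4.04 in HFD and 2.03, 2.56 and 2.51 in SW adipocytes. LFD and HFD overlapped, and SW lay below both (1.53-fold below HFD, exact two-sided permutation p = 0.1, the smallest that 3 against 3 libraries allow). With Adgre1 and Cd68 alone as the markers SW was 1.14-fold lower than HFD (p = 0.1), and with the list without Lyz2, C1qa, C1qb and C1qc SW and HFD overlapped (p = 0.2, exact permutation test). With either of these lists LFD lay above HFD without overlap (54.6 to 71.3 against 21.5 to 25.1 per 1000 CPM of Adgre1 and Cd68, and 13.9 to 17.2 against 11.6 to 13.7), so the pattern depended on the markers. Ctsk had 36.7, 35.5 and 34.8 in LFD, 47.3, 37.7 and 41.7 in HFD and 42.1, 38.6 and 39.9 in SW adipocytes. This narrow range was particular to the 12 markers. Per 1000 CPM of Adgre1 and Cd68, Ctsk had 497 to 651 in LFD, 259 to 295 in HFD and 311 to 398 in SW, without overlap between the diets, and with the list without Lyz2, C1qa, C1qb and C1qc SW lay above LFD and HFD, which overlapped. Dcstamp had 0.686 to 1.27 in LFD, 1.15 to 1.72 in HFD and 1.13 to 1.83 in SW, with overlap between all diets, while per Adgre1 and Cd68 LFD (10.9 to 22.0) lay above HFD (8.08 to 10.7). Atp6v0d2 had 12.8, 6.13 and 5.49 in LFD, 42.5, 38.6 and 45.6 in HFD and 25.7, 35.1 and 31.4 in SW adipocytes, and here the 3 diets did not overlap (SW against HFD, exact two-sided permutation p = 0.1). The HFD and LFD libraries were used to pick this gene, so this is a description only. With either of the other lists SW and HFD overlapped for Atp6v0d2 and both stayed above LFD, and with Adgre1 and Cd68 alone Ctsk was higher in SW than in HFD (1.28-fold, p = 0.1, exact permutation test).

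Tm4sf19 had 0.127, 0 and 0.343 CPM per 1000 CPM of markers in LFD, 1.61, 1.30 and 2.02 in HFD and 0.0446, 0.334 and 0.306 in SW adipocytes. It was lower in SW than in HFD by 7.20-fold on this scale, without overlap (exact two-sided permutation p = 0.1, the smallest possible). This is a description only, since the HFD libraries were used to pick the gene. SW and LFD overlapped on this scale. In SVC its ratio was 0.0812 in the LFD mouse, 0.666 and 0.806 in HFD and 0.665, 0.757 and 0.450 in SW mice, and SW and HFD overlapped. In SVC the ratios of Atp6v0d2 were 29.3 and 9.01 in HFD and 2.67, 5.33 and 2.86 in SW mice, and those of Tnfrsf11a were 3.47 and 1.08 in HFD and 0.346, 0.686 and 0.380 in SW mice. Both genes were lower in every SW than in every HFD library relative to the markers (exact two-sided permutation p = 0.2, the smallest that 3 against 2 libraries allow). Acp5 had 263, 284 and 604 in LFD, 15.9, 30.8 and 19.5 in HFD and 31.8, 36.3 and 47.3 in SW adipocytes, and between 3.72 and 11.3 in SVC. Relative to the markers it was thus higher in LFD adipocytes than in any other library, and the same held for Nfatc1 (22.5 to 29.7 in LFD adipocytes, at most 5.401 elsewhere), Itgb3 (3.94 to 4.46, at most 1.95) and Ocstamp (0.514 to 0.763, at most 0.236).

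**Figure D4:**
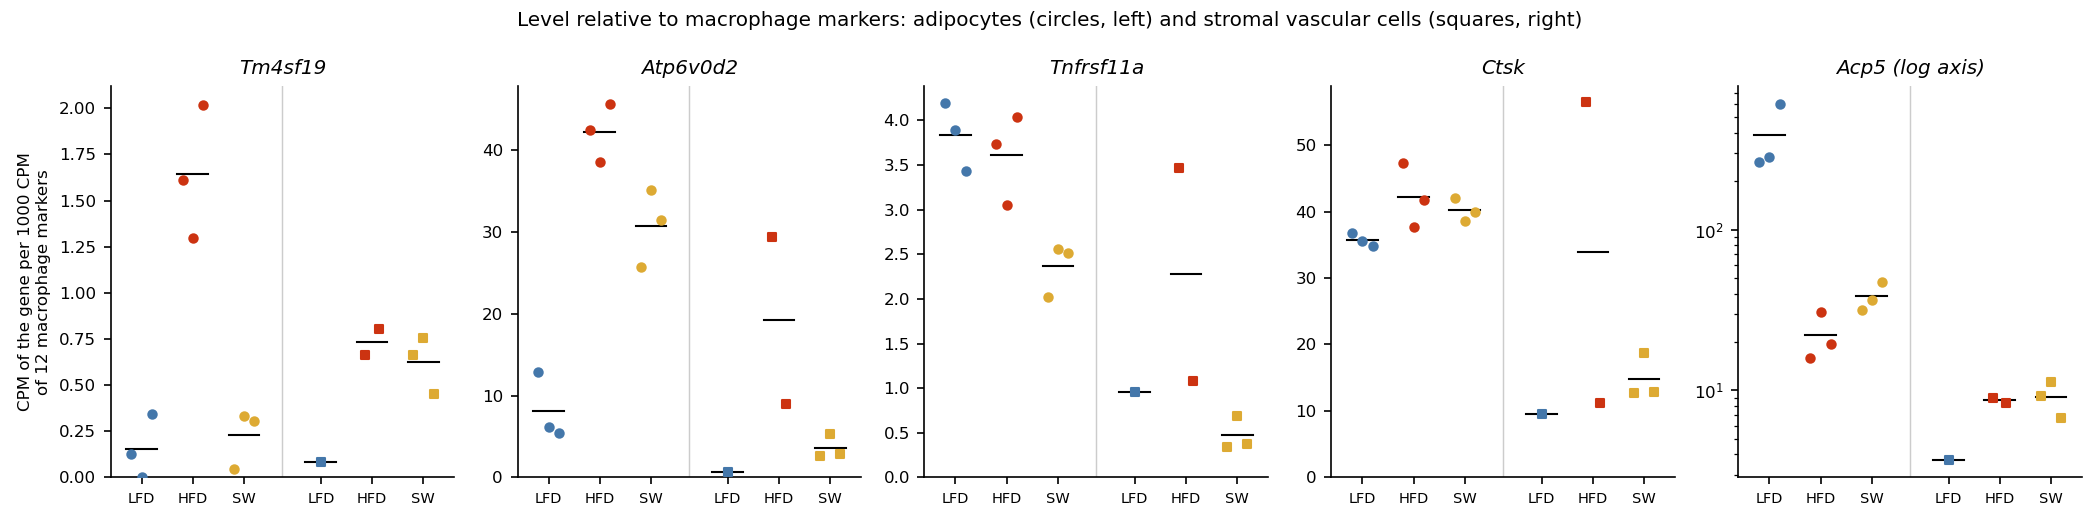
CPM of a gene per 1000 CPM of the 12 macrophage markers in each library, by diet on the x axis, adipocytes as circles and SVC as squares, with a black line at the group mean; the axis of Acp5 is logarithmic. In adipocytes Ctsk lay between 34.8 and 47.3 per 1000 CPM of these 12 markers, a range that did not hold with other marker lists, and Tm4sf19 was at least 1.30 in HFD and at most 0.343 in LFD and SW.

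The other genes of the pathway were taken from lists of ligands and receptors, adaptors, transcription factors, fusion genes and resorption machinery, 71 genes without the 10. These lists were chosen with earlier results of these data known, and the set was picked on HFD against LFD adipocytes. The counts per list, here and below, are therefore a description beside the shares of all genes. In adipocytes 68 of them were tested, and 45 were higher and 10 lower in HFD than in LFD (edgeR adjusted p under 0.05), against 26.5% and 25.0% of all genes. Their median log2 fold change was 1.17, against -0.03 for all genes tested. From HFD to SW 5 rose and 19 fell, against 15.6% and 15.9% of all genes, with a median of -0.15 against 0.01. From LFD to SW 36 were higher and 3 lower, against 10.9% and 6.18%, with a median of 0.85 against 0.00. In SVC 3 of 70 rose and 12 fell from HFD to SW, against 5.71% and 11.7% of all genes, with a median of -0.10 against 0.03.

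Tnfsf11, which encodes the ligand RANKL, had 4, 3 and 10 counts in all in LFD, HFD and SW adipocytes, and 5, 10 and 7 in the LFD, HFD and SW libraries of SVC, too few to show a change. Tnfrsf11b, the decoy receptor osteoprotegerin that holds RANKL back, was at 2.15 ± 1.14 CPM (SD, n = 3) in LFD adipocytes and fell from 3.59 ± 0.849 CPM in HFD to 1.11 ± 0.176 CPM in SW adipocytes (log2 -1.67, standard error 0.38, edgeR adjusted p = 0.0127). Csf1, the growth factor that osteoclast and macrophage precursors need, lay between means of 39.8 and 46.2 CPM in adipocytes and was called in no diet comparison there. Its receptor Csf1r, also a macrophage marker, was at 67.8 ± 18.7, 484 ± 62.8 and 257 ± 17.1 CPM (SD, n = 3) in LFD, HFD and SW adipocytes.

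Of the 16 adaptor and signalling genes, 12 were higher and 1 lower in HFD than in LFD adipocytes, against 26.5% and 25.0% of all genes. In SW 9 were higher and 0 lower than in LFD, against 10.9% and 6.18%. Trem2 and Tyrobp, a receptor and its adaptor that macrophages and osteoclasts share, were among them, with SW against LFD at log2 4.67 (standard error 0.44, edgeR adjusted p = 9.61e-05) and 3.55 (standard error 0.32, edgeR adjusted p = 7.81e-05). From HFD to SW 7 of the 16 fell and 0 rose, against 15.9% and 15.6% of all genes. The largest falls were in Pstpip2 (log2 -1.96) and Sirpb1a (log2 -1.59). Of the 13 transcription factors that promote osteoclast formation, 7 were higher and 2 lower in HFD than in LFD, against 26.5% and 25.0% of all genes. The rises were led by Spi1 (log2 3.28), the macrophage factor PU.1, and Mitf (log2 1.93), which binds the promoter of Acp5 in osteoclasts. Of those that restrain it, Irf8, also a macrophage factor, was higher in HFD than in LFD (log2 1.92) and Id1 was lower (log2 -2.29).

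Of 13 fusion genes tested, 8 were higher and 3 lower in HFD than in LFD adipocytes, against 26.5% and 25.0% of all genes. Adam8 (log2 5.11) and Sirpa (log2 2.74) were the largest rises. From HFD to SW 1 rose and 3 fell, against 15.6% and 15.9% of all genes, with Adam12 (log2 -1.45) and Adam8 (log2 -1.03) among the falls. Siglec15, a lectin of fusing osteoclasts, had 0 counts in LFD, 60 in HFD and 9 in SW adipocytes, a pattern like that of Tm4sf19 at a lower level, and passed no filter there. Of the 16 resorption genes tested, 12 were higher and 3 lower in HFD than in LFD, against 26.5% and 25.0% of all genes. In SW 10 were higher and 0 lower than in LFD, against 10.9% and 6.18%. Tcirg1, the a3 subunit of the osteoclast pump, and Clcn7, its chloride partner, were higher in SW than in LFD adipocytes (log2 1.92, edgeR adjusted p = 0.000177, and log2 0.94, edgeR adjusted p = 0.000523). Mmp9 and Car2, an osteoclast protease and the carbonic anhydrase that supplies its protons, were lower in HFD than in LFD, as Acp5 was (log2 -1.49, edgeR adjusted p = 0.00149, and log2 -1.08, edgeR adjusted p = 0.00796), and Mmp9 rose again in SW (log2 1.06, edgeR adjusted p = 0.0184). From HFD to SW 1 of the 16 resorption genes rose, Mmp9, and 5 fell, against 15.6% and 15.9% of all genes. Vav3 (log2 -0.97) and Mmp14 (log2 -0.63) were among the falls. Calcr, the calcitonin receptor that marks mature osteoclasts, had 0 counts in all 15 libraries.

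As a description only, since the set was picked on this contrast, in HFD adipocytes Tm4sf19, Atp6v0d2, Ctsk, Dcstamp, Tnfrsf11a and, by a narrow margin, Itgb3 were above LFD, while Acp5, Mmp9 and Car2 were lower, Nfatc1 and Ocstamp overlapped with LFD, Oscar was near 0 and Calcr was at 0. Of the osteoblast markers, Sp7 had at most 7 counts, Bglap at most 1 and Ibsp at most 1 in any library. Runx2 (log2 2.27, edgeR adjusted p = 7.17e-05) and Col1a1 (log2 2.04, edgeR adjusted p = 0.000202) were higher in HFD than in LFD adipocytes, and Alpl was lower (log2 -1.70, edgeR adjusted p = 5.51e-05). Bone tissue as a source was not tested. The osteoblast list summed to 134 to 975 CPM in adipocytes and 1559 to 4119 CPM in SVC, led in every library by Col1a1, which fibroblasts make as well.

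For each tested gene the 3 nearest profiles over the 15 libraries were sought among 14238 genes by the root-mean-square distance of centred log2 CPM. Nearest to Atp6v0d2 were Il7r (distance 0.39), Dhrs9 (0.42) and the macrophage elastase Mmp12 (0.42). For Tm4sf19 the 3 were Gm15931 (0.79), Rsc1a1 (0.91) and Pik3ap1 (0.94). Nearest to Ctsk were 5430435G22Rik (0.25), Galnt12 (0.26) and another cathepsin, Ctss (0.30), and nearest to Dcstamp were Ly9 (0.28), Ms4a6d (0.31) and Car9 (0.31). Within the set, Ctsk and Dcstamp were the closest pair at a distance of 0.38. Nearest to Tnfrsf11a were Tlr7 (0.26) and Cybb (0.27), both at work in macrophages, and 4930506M07Rik (0.29). Nearest to Acp5 were Txnl4b (0.23), Mrpl53 (0.28) and Acyp1 (0.28), to Ocstamp Nme4 (0.31), Dhx58 (0.33) and Cdk20 (0.34), to Nfatc1 Zfp384 (0.17), Pofut1 (0.17) and Limd1 (0.17), and to Itgb3 St3gal1 (0.28), Wdr90 (0.30) and Cacna1a (0.30). Distances are shorter for genes that vary little, so they do not rank the members.

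Promoters from RefSeq, from 250 bases before to 50 after the start on the build GRCm38.p6, were at hand for 5 of the 10 genes: Tm4sf19, Tnfrsf11a, Ctsk, Oscar and Acp5, the last with 3 starts. They were searched on both strands for the NFAT core GGAAA, the E-boxes CACGTG and CATGTG that MITF and its relatives bind, the AP-1 site TGANTCA and the PU.1 core GAGGAA. Of all 32851 promoters, 61.3% held the NFAT core, 7.15% CACGTG, 14.2% CATGTG, 7.81% the AP-1 site and 28.3% the PU.1 core. In 3 of the 5 genes every SW adipocyte library lay above every LFD library, and the sequences of these are shown. Matches are in capitals.
Tm4sf19, chr16:32400256-32400555, plus strand: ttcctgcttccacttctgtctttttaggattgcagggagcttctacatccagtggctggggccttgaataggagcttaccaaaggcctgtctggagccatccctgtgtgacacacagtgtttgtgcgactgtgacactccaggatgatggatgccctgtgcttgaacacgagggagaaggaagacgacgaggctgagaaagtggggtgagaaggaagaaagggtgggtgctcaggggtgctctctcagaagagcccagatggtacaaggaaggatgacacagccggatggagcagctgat
Tnfrsf11a, chr1:105780473-105780772, plus strand: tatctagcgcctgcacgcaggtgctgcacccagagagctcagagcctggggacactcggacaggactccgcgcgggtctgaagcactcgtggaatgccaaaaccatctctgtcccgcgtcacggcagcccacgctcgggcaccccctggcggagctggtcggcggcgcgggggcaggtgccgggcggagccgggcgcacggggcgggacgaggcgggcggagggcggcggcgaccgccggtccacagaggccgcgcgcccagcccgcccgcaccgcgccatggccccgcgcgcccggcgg
Ctsk, chr3:95498960-95499259, plus strand: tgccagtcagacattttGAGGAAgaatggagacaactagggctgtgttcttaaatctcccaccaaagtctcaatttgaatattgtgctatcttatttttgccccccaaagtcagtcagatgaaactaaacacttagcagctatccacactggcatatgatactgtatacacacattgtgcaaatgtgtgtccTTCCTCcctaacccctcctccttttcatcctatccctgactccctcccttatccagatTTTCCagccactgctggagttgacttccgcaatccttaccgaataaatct
The Ctsk promoter held 2 matches to the PU.1 core and 1 to the NFAT core, and the windows of Tm4sf19 and Tnfrsf11a held 0 matches to any of the 5 motifs. The promoters of Acp5 held 1, 1 and 2 NFAT cores, and the one at chr9:22130549-22130848 also a CATGTG, read as CACATG. The promoter of Oscar held 4 NFAT cores, 2 PU.1 cores and 1 CATGTG, with 1 NFAT core overlapping a PU.1 core. A match describes the letters of this window and not a bound site.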

How the data were processed

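Per the submitters' processing notes, the authors mapped the reads with Bowtie2 to mm9 and used RSEM. The deposited values are estimated counts (expected counts) per gene, in whole numbers. Positions and exon lengths come from GENCODE M21 (GRCm38). Column names hold fraction, diet and a number found in no label. Left out were 3 columns whose names fit no labelled group.

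Each fraction was fitted on its own, and both together to compare fractions, by the robust quasi-likelihood test of edgeR 4.0.16 (R 4.3.3), with TMM scaling, no covariates, genes kept by filterByExpr at a minimum count of 10, and p adjusted over all genes tested (Benjamini-Hochberg, called under 0.05, intervals from the t distribution). Of the 10 genes 9 passed, and Oscar did not. The members and lists were chosen with earlier results of these data known. Named besides the members are pathway genes listed by function and, per list and comparison, up to 2 called rises and 2 called falls, and some are not reported here. Other tools were limma-voom (limma 3.58.1) and DESeq2 1.42.0. Intervals on counts cover counting error only.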

Additional observations from a re-analysis of the deposited data

Results flagged for a closer look

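For 2 of the 10 genes the fractions changed apart from HFD to SW, by a test of the difference itself in the fit of both fractions, against 27.1% of all genes tested. The count did not exceed that share, so it shows nothing particular to the set, and the 2 genes are described singly. The test shares the HFD adipocyte libraries with the choice of the set, which was picked on the rise of Tm4sf19 and Atp6v0d2 there. For Tm4sf19 the result is therefore a description only. For Tm4sf19 the change in adipocytes minus that in SVC was log2 -3.31 (standard error 0.74, edgeR adjusted p = 0.00633). In adipocytes the 3 SW libraries, at 0.375 to 1.98 CPM, lay below the 3 HFD libraries, at 10.1 to 18.2 CPM, while in SVC the SW libraries, at 10.98 to 15.4 CPM, lay within the HFD pair of 7.52 and 18.8 CPM. For Nfatc1 the same difference was log2 -0.72 (standard error 0.25, edgeR adjusted p = 0.0472). It came close to the threshold, and it did not pass with limma-voom, without a filter, with 10 counts in every library, with upper-quartile factors or with only the groups compared, where the adjusted p lay between 0.0509 and 0.0921, nor without 9 of the 11 libraries left out in turn (edgeR adjusted p up to 0.153). The causes of these differences were not tested.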

How the results depend on the processing

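Of the fold changes of single genes recomputed under the alternatives, 710 kept their side of the threshold, 42 lost the call, 11 gained it and 0 called changes turned sign. The number of the 10 genes called moved as follows. With at least 10 counts in every library it was 3 in place of 5 for SW against LFD in adipocytes, 1 in place of 2 for HFD adipocytes against SVC, and 0 in place of 2 for the difference between fractions, where Tm4sf19 was not tested and Nfatc1 had an adjusted p of 0.0554. For HFD adipocytes against SVC it was 0 when only the groups compared were fitted and 1 after thinning. For the difference between fractions it was 1 with limma-voom, 1 without a filter and 1 with upper-quartile factors. Smaller moves were to 2 to 4 genes in place of 3 for SW against HFD in adipocytes, to 4 in place of 5 for SW against LFD with limma-voom or only the groups compared, to 4 to 6 in place of 6 for SW adipocytes against SVC, and to 3 in place of 2 for HFD adipocytes against SVC with upper-quartile factors. With these factors 6 in place of 7 genes did not overlap between HFD and LFD adipocytes. Leaving out each library in turn gave 2 to 4 genes for SW against HFD in adipocytes, 4 to 5 for SW against LFD, 0 to 4 for SW against HFD in SVC, 5 to 6 for SW adipocytes against SVC, 1 to 2 for HFD adipocytes against SVC and 1 to 4 for the difference between fractions. The cause of these changes was not tested.

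Over all genes, SW against HFD in SVC gave 2849 calls with edgeR (932 higher and 1917 lower), 5222 with DESeq2 (2473 higher and 2749 lower) and 1719 with limma-voom. It gave 0 without library 412 (4217 at an unadjusted p under 0.05) or 413 (5435), 593 without 414, 503 without 212 and 6213 without 411, where the lone HFD library is assumed to vary like the other groups. SW against HFD in adipocytes gave 4546 calls, 2299 without HFD library 401 and 1522 without 403. HFD adipocytes against SVC gave 5078 calls, 2030 with only the groups compared, 2528 without SVC library 411 and 3255 without adipocyte library 402. The difference between fractions gave 4727 calls and 2936 without SVC library 212. The share of the gap between HFD and LFD left in SW was also computed with other scaling factors, an alternative chosen after seeing the data. It moved by less than its spread between libraries for each of the 5 genes (Tm4sf19, Atp6v0d2, Ctsk, Dcstamp and Tnfrsf11a). No paired analysis was possible because the deposited columns carry numbers that are in no label, so libraries of different groups cannot be matched. Counts limit what can be said of Oscar, Ocstamp, Tnfsf11 and Siglec15.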

Other observations

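Markers of other cell types than macrophages also differed between the libraries. Among all genes, 26.5% were higher and 25.0% lower in HFD than in LFD adipocytes. From HFD to SW 15.6% rose and 15.9% fell, and in SW 10.9% were higher and 6.18% lower than in LFD. The counts below for dendritic cell, fibroblast, platelet and T cell markers, all short lists, lay near these shares. Adipocyte markers were lower in HFD than in LFD adipocytes for 7 of 10 and higher for 0, and 5 of 10 rose from HFD to SW, led by Cfd (log2 2.94, standard error 0.48, edgeR adjusted p = 0.00518). Endothelial markers were lower in SW than in LFD adipocytes for 5 of 6 and higher for 0 of 6. Of the 8 dendritic cell markers, 2 were higher and 2 lower in HFD than in LFD adipocytes, and Itgax, which macrophages of obese fat carry too, was the largest rise (log2 4.37, standard error 0.33, edgeR adjusted p = 1.08e-05). Of 6 markers of fibroblasts and progenitors, 2 were higher in HFD than in LFD adipocytes (Col1a1 and Pdgfra) and 1 was lower (Ly6a). Col1a1, whose product cathepsin K degrades, fell again from HFD to SW (log2 -1.39, standard error 0.26, edgeR adjusted p = 0.00704). Of 3 platelet markers tested, 1 (Pf4) was higher in HFD than in LFD adipocytes. Of the 5 T cell markers tested, 1 (Cd3d) rose from HFD to SW in adipocytes. Of the 4 B cell markers, 2 rose and 0 fell there. In SVC the summed T cell markers ranged from 19.5 CPM in library 212 to 89.5 CPM in library 414, and from 25.7 to 89.5 CPM within SW mice. The summed B cell markers lay at 17.9 CPM in HFD library 212 and 212.3 CPM in 411, and from 45.6 to 233 CPM within SW mice. Marker levels thus differed between SVC libraries of the same diet. How these differences bear on the 10 genes was not tested.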
